A study of Homo sapiens with 15 samples.

Results

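The genes described here encode the enzymes that make serine and pass its carbon unit to folate, together with the cell's main carrier of reduced folate. There are 10 of them: PHGDH, PSAT1 and PSPH of serine synthesis, SHMT2, MTHFD2, MTHFD1L and ALDH1L2 of the mitochondrial folate pathway, SHMT1 and MTHFD1 of the cytosolic folate pathway, and the carrier SLC19A1. Every non-control probe set that the array annotation gives to 1 of these genes alone was taken, which made 27 of 54613. Of these, 20 lay above their array's own median on at least 3 of the 15 arrays and were tested, among 28897 tested in all, and 9 of the 10 genes had a tested probe set, among 13607 genes that did. The 9 genes differ in how well they are covered, from 1 tested probe set for PHGDH, SHMT1 and MTHFD1 to 6 for SLC19A1, and MTHFD1L had none. The genes were chosen by their measured log2 differences between infliximab and 0 h, with PSAT1 and ALDH1L2 among the largest increases. The infliximab values of the members are therefore a description. Their p-values are not given, and "rose", "fell", "passed" and "called" say there only where a value lay against the threshold used for all probe sets, which supports nothing about the members. P-values and intervals of members are given for the comparisons that this choice did not use, though some of these share arrays with it.

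The RNA came from THP-1 cells, a human monocytic leukaemia line used as a model of monocytes, and each of the 5 groups held 3 arrays. The groups were untreated cells at 0 h, cells given infliximab for 6 h or for 24 h, and cells given CDP870 for 6 h or for 24 h. Infliximab is a chimeric IgG1 antibody against tumour necrosis factor (TNF), and CDP870, also known as certolizumab pegol, is a Fab' fragment against TNF that is joined to polyethylene glycol and has no Fc part. No dose stands in the labels, and no untreated cells were taken at 6 or 24 h, so agent and time in culture cannot be told apart in any comparison with 0 h. All groups come from a single cell line. The 3 samples of each group are described as biological replicates, with no account of the cultures, so a p-value measures the spread between such samples.

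Cells make serine from the glycolytic intermediate 3-phosphoglycerate in 3 steps, by the dehydrogenase PHGDH, the aminotransferase PSAT1 and the phosphatase PSPH. Serine hydroxymethyltransferase, SHMT2 in mitochondria and SHMT1 in the cytosol, then splits serine into glycine and a carbon unit that is carried by tetrahydrofolate. In mitochondria MTHFD2, MTHFD1L and ALDH1L2 oxidise this unit to formate or carbon dioxide, formate leaves for the cytosol, and MTHFD1 returns it to folate for the synthesis of purines and thymidylate. In proliferating cells most of the flow is known to run in this direction, out of the mitochondria. The serine synthesis and mitochondrial genes are also known targets of ATF4, the transcription factor of the amino acid and integrated stress response.

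Values are log2 expression values as the authors deposited them, and a difference of 1 is a doubling. Array medians lay between 2.93 and 3.07. Control replicate 3 and infliximab 24 h replicates 5 and 6 were treated as arrays apart, with a root mean square distance to the rest of their group of 0.308, 0.387 and 0.31; that of infliximab 24 h replicate 7, 0.346, was of the same order, and on the other 11 arrays it was 0.166 to 0.245. Of 8 monocytic markers 6 had a tested probe set, with group means of up to 9.80 for ITGB2. With infliximab 4.02% of all tested probe sets rose at 6 h and 3.78% at 24 h, and of these 6 markers 1 and 4 did. The summed linear level of these markers was 1.52e+03 to 1.88e+03 at 0 h, 2.01e+03 to 2.79e+03 on the infliximab arrays and 1.69e+03 to 1.82e+03 on the CDP870 arrays. Epithelial markers were measured as well: of 7 listed, 6 were tested, CDH1 lay below the median everywhere, and 4 rose with infliximab at 6 h and 5 at 24 h, EPCAM by 0.84 at the first time and 0.56 at the second (SE of 0.10 for both). Their summed level was 664 to 786 at 0 h, 922 to 1.13e+03 with infliximab and 485 to 584 with CDP870. Of the other markers, 2 of 3 for T cells and 1 of 3 each for B cells, erythroid cells and fibroblasts were tested. None of those tested passed in any comparison with 0 h. The hybridisation spike-in controls averaged 7.71 to 7.78 on the infliximab 6 h arrays, 7.34 to 7.65 on those of 24 h, 7.23 to 7.46 at 0 h, 7.38 to 7.63 with CDP870 at 6 h and 7.36 to 7.72 at 24 h. CDP870 24 h replicates 11 and 12, at 7.72 and 7.71, were thus level with infliximab at 6 h. The part of these markers and of the spike-in level in the results was not tested, beyond a fit with the spike-in level as a covariate. In a bulk sample a change in the share of cells that express a gene and a change in its RNA per cell cannot be told apart.

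With infliximab the genes of serine synthesis and of the mitochondrial folate pathway were higher, and the cytosolic MTHFD1 was lower, at both times. Of the 20 tested probe sets, 12 rose and 5 fell at 6 h, which is 17 called at a limma adjusted p under 0.05. Of all tested probe sets 8.42% were called at 6 h, 4.02% higher and 4.4% lower. At 24 h 12 of the 20 rose and 1 fell, 13 in all, and of all tested probe sets 6.57% were called, 3.78% higher and 2.79% lower. By gene, 6 of 9 rose and 2 fell at 6 h, and 6 rose and 1 fell at 24 h. The median difference was 0.82 at 6 h and 0.88 at 24 h, against -0.04 and -0.02 over all tested probe sets. Leaving out the 3 arrays apart leaves 1 array of infliximab at 24 h, which is then assumed to vary like the other groups. In that fit the differences at 6 and 24 h were 1.67 and 1.80 for PHGDH and -0.42 and -0.46 for MTHFD1. On the brighter PSAT1 probe set they were 1.81 and 1.77. The choice of genes used these contrasts, so nothing is read from the counts above. Among the 12, the second ALDH1L2 probe set, lay above the array median on the 6 infliximab arrays alone and so entered the test through them.

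**Figure D1:**
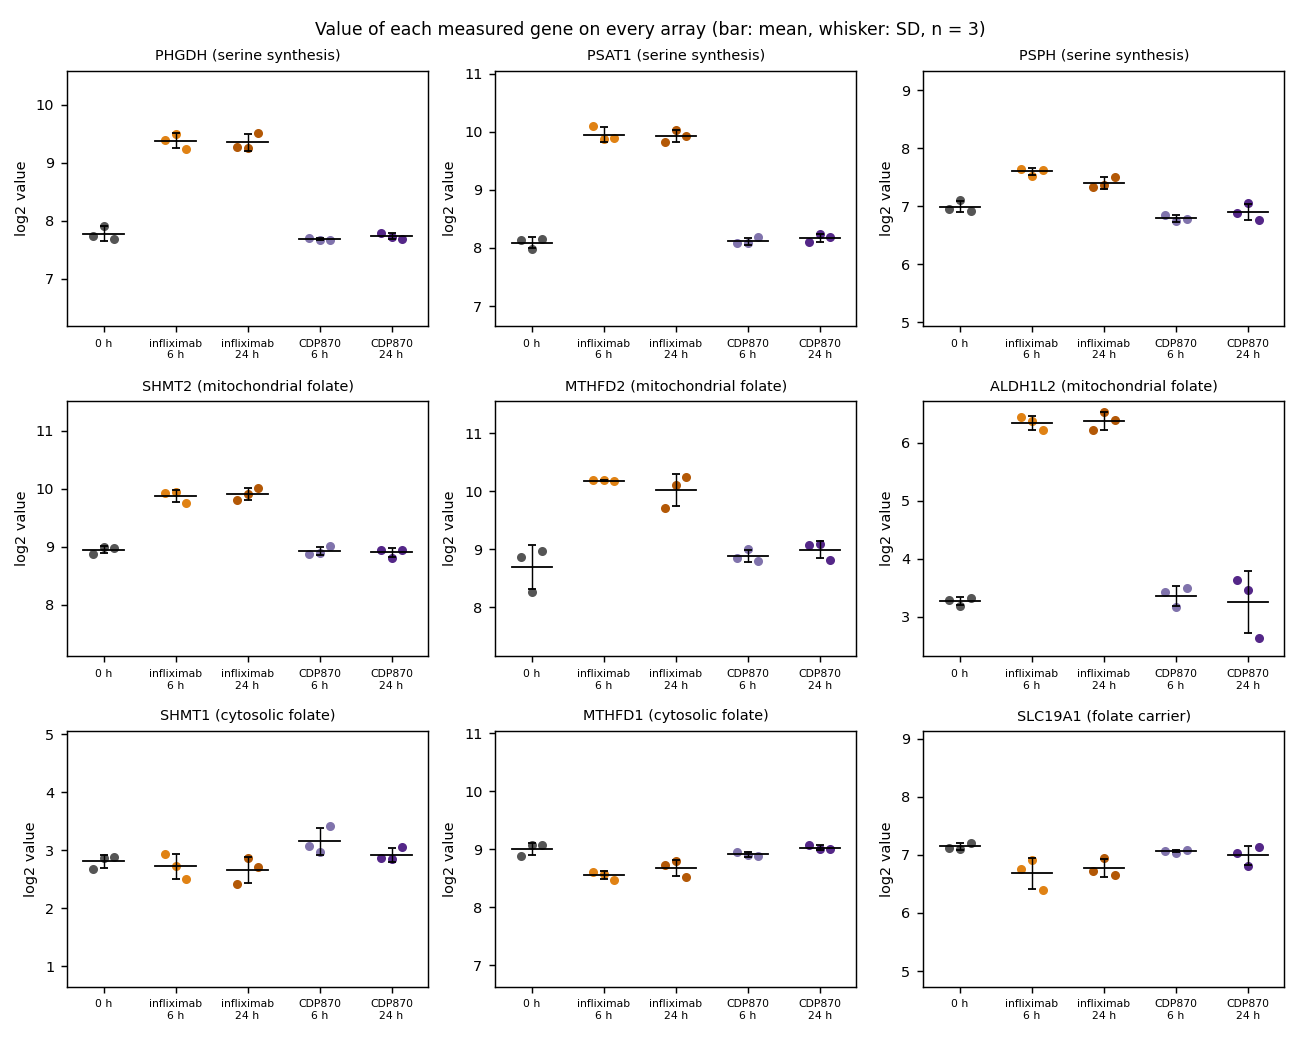
Log2 value (vertical axis, 1 panel per gene, each spanning the same range) on every array in the 5 groups (horizontal axis) for the tested probe set with the highest mean of each of the 9 measured genes; points are arrays, bars means and whiskers SD (n = 3). PHGDH, PSAT1, PSPH, SHMT2, MTHFD2 and ALDH1L2 are higher on all 6 infliximab arrays than on the other 9, MTHFD1 is lower on all 6, and SHMT1 and SLC19A1 overlap.

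PHGDH catalyses the first step of serine synthesis. Its probe set (201397_at) read 7.74, 7.92 and 7.69 at 0 h, 9.40, 9.50 and 9.24 after 6 h of infliximab, 9.28, 9.26 and 9.52 after 24 h, 7.71, 7.68 and 7.67 after 6 h of CDP870, and 7.79, 7.73 and 7.69 after 24 h. The lowest infliximab array read 9.24, and no other array exceeded 7.92. PHGDH rose 3.02-fold at 6 h (log2 1.60 ± 0.10 SE, n = 3 and 3) and 2.97-fold at 24 h (1.57 ± 0.10). With CDP870 its difference from 0 h was -0.10 at 6 h (95% interval -0.31 to 0.12) and -0.05 at 24 h (-0.26 to 0.17).

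PSAT1, the aminotransferase of the second step, had 2 tested probe sets that moved alike. On 223062_s_at, the brighter, the 0 h arrays read 8.14, 7.99 and 8.15, the infliximab arrays 10.10, 9.87 and 9.89 at 6 h and 9.83, 10.04 and 9.92 at 24 h, and the CDP870 arrays 8.08, 8.08 and 8.19 at 6 h and 8.10, 8.24 and 8.19 at 24 h. The gap between the lowest infliximab array and the highest of the others was 1.59. PSAT1 rose 3.63-fold at 6 h on this probe set (1.86 ± 0.09) and 3.57-fold at 24 h (1.84 ± 0.09). The second probe set, 220892_s_at, read 7.12, 6.90 and 7.14 at 0 h, 9.19, 9.43 and 9.37 with infliximab at 6 h, and 9.03, 8.34 and 9.35 at 24 h. Replicate 6 of infliximab at 24 h, at 8.34, stood low within its group but still above all arrays of 0 h and CDP870. On this probe set the difference was 2.28 ± 0.18 at 6 h and 1.85 ± 0.18 at 24 h. With CDP870 the 4 differences over both probe sets lay between -0.17 and 0.08.

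PSPH removes the phosphate in the last step. Its 2 tested probe sets both rose but by different amounts. On 205048_s_at, the brighter, the values were 6.95, 7.10 and 6.92 at 0 h, 7.64, 7.53 and 7.63 with infliximab at 6 h, and 7.33, 7.36 and 7.51 at 24 h. On 205194_at they were 5.21, 5.64 and 5.17 at 0 h, 6.85, 6.83 and 6.94 at 6 h, and 6.80, 6.87 and 6.60 at 24 h. On each of these probe sets all infliximab arrays, of 6 h and of 24 h, lay above all arrays of 0 h. The first gave 0.61 ± 0.09 at 6 h and 0.41 ± 0.09 at 24 h (1.53-fold and 1.33-fold), and the second 1.53 ± 0.17 and 1.42 ± 0.17 (2.89-fold and 2.67-fold). The call of the first at 24 h was lost without control replicate 2 (0.39) or 4 (0.38). PSPH has a pseudogene copy, PSPHP1, and which transcripts each probe set detects was not analysed here. On the first probe set the CDP870 arrays at 6 h read 6.85, 6.74 and 6.78, all below 0 h, with a difference of -0.20 (95% interval -0.40 to 0.00) that did not pass (limma adjusted p = 0.997). The remaining probe set, 244819_x_at, lay between 1.11 and 1.94 on all arrays, below the array medians, and was not tested.

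The promoters of PHGDH and PSAT1 are shown because the first 2 enzymes of the pathway rose with similar sizes. RefSeq promoter windows (GRCh38.p14, 250 bases before to 50 after a start) were given for 7 of the 10 genes, all but PSPH, SHMT2 and ALDH1L2. These motifs were searched on both strands: CCAAT, the E-box CACGTG, and TGATGNAA, the core of the C/EBP-ATF response element to which ATF4 binds. The 120 bases just before the start site, 5′ to 3′ with each CCAAT in capitals, read:
PHGDH (chr1:119711814-119711933, + strand): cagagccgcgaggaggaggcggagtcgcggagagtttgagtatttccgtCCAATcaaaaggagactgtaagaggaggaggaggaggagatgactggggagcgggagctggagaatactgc
PSAT1 (chr9:78297005-78297124, + strand): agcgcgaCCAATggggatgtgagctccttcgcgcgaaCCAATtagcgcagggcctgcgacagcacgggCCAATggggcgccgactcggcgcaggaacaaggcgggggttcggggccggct
The PHGDH window held 1 CCAAT, first base at -71 from the start, and the PSAT1 window 3, at -113, -83 and -52. CCAAT occurs in 34.6% of the 35116 windows of this length in the table. TGATGNAA, found in 3.62% of windows, was not among the letters of either. A match is a description of letters and not a binding site, and sequence outside the window was not searched.

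In the mitochondrial folate pathway 7 probe sets of SHMT2, MTHFD2 and ALDH1L2 were tested, and all 7 rose with infliximab at both times. Of all tested probe sets 4.02% rose at 6 h and 3.78% at 24 h. The second ALDH1L2 probe set entered the test through the infliximab arrays alone, and the choice of genes used these contrasts. SHMT2 makes glycine and loads the carbon unit onto folate. Its brightest probe set (214096_s_at) read 8.88, 9.0 and 8.98 at 0 h, 9.92, 9.95 and 9.76 with infliximab at 6 h, 9.81, 9.91 and 10.01 at 24 h, 8.88, 8.90 and 9.01 with CDP870 at 6 h, and 8.95, 8.81 and 8.95 at 24 h. The infliximab arrays thus began at 9.76, and the highest of the rest was 9.01. The difference was 0.92 ± 0.09 at 6 h (1.90-fold) and 0.96 ± 0.09 at 24 h (1.94-fold). The other 2 probe sets gave 1.09 and 1.13 (both ± 0.10) and 1.22 and 1.29 (both ± 0.11).

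MTHFD2 is the mitochondrial methylenetetrahydrofolate dehydrogenase and cyclohydrolase, abundant in proliferating and embryonic cells. On 201761_at it read 8.87, 8.27 and 8.97 at 0 h, 10.20, 10.19 and 10.17 with infliximab at 6 h, 9.72, 10.11 and 10.24 at 24 h, 8.85, 9.0 and 8.80 with CDP870 at 6 h, and 9.08, 9.09 and 8.82 at 24 h. Control replicate 3, at 8.27, was the lowest of all 15 arrays, and the infliximab 6 h arrays were nearly identical. MTHFD2 rose by 1.48 ± 0.17 at 6 h (2.80-fold) and 1.32 ± 0.17 at 24 h (2.50-fold), and on the second probe set, 234976_x_at, by 1.35 ± 0.19 and 1.19 ± 0.19. With CDP870 at 24 h its difference from 0 h was 0.29 (95% interval -0.06 to 0.65), the highest of the 20 at that time, and on the second probe set -0.13 (-0.53 to 0.27). MTHFD2 has several pseudogene copies in the RefSeq annotation, and whether the probe sets detect them was not analysed here.

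ALDH1L2, the mitochondrial 10-formyltetrahydrofolate dehydrogenase, moved most. Its probe set 231202_at read 3.29, 3.19 and 3.32 at 0 h, near the array median, 6.44, 6.37 and 6.21 with infliximab at 6 h, and 6.22, 6.53 and 6.38 at 24 h. With CDP870 it read 3.42, 3.16 and 3.50 at 6 h and 3.64, 3.46 and 2.64 at 24 h. The lowest infliximab array was 2.57 above the highest of the others. The increase was 8.42-fold at 6 h (3.07 ± 0.19), number 2 by size among the 28897 tested probe sets, and 8.63-fold at 24 h (3.11 ± 0.19), number 3. The size is uncertain because the 0 h values lie low on the scale, where the treatment of background by the authors' processing is not known. The second probe set, 1556841_a_at, read 2.21, 2.63 and 2.49 at 0 h, 3.09, 3.36 and 3.06 with infliximab at 6 h and 3.54, 3.03 and 3.17 at 24 h. Its differences of 0.73 and 0.80 (both ± 0.15) are far smaller, the first of them not called without infliximab replicate 9, and the last, 1559393_at, lay between 1.58 and 2.66 and was not tested. Averaged over its tested probe sets, ALDH1L2 was higher by 1.90 at 6 h.

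MTHFD1L, the mitochondrial formyltetrahydrofolate synthetase that releases formate, could not be assessed from probe sets of its own. Both, 1561125_at and 225518_x_at, stayed below the array median everywhere, at 1.20 to 2.23 and 1.23 to 1.76. A pair of further probe sets are annotated to MTHFD1L together with LOC101928195 and LOC100996643 and so name no gene. They were singled out after their values were seen. The first, 225520_at, read 7.37, 7.31 and 7.56 at 0 h, 8.09, 8.14 and 7.93 with infliximab at 6 h, 7.96, 8.29 and 8.11 at 24 h, 7.60, 7.48 and 7.25 with CDP870 at 6 h, and 7.61, 7.58 and 7.52 at 24 h. All 6 infliximab arrays were above the other 9, and it rose by 0.64 ± 0.11 and 0.71 ± 0.11. The second, 231094_s_at, was 0.34 ± 0.13 and 0.25 ± 0.13 above 0 h and passed at neither time.

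The MTHFD2 promoter is given because the gene rose on both probe sets, and a stretch of the MTHFD1L promoter because it holds the only TGATGNAA in the 7 genes' windows. The MTHFD2 sequence is the 200 bases before its start site with CCAAT in capitals, and the MTHFD1L sequence is 30 bases with TGATGCAA in capitals, 5′ to 3′:
MTHFD2 (chr2:74198415-74198614, + strand): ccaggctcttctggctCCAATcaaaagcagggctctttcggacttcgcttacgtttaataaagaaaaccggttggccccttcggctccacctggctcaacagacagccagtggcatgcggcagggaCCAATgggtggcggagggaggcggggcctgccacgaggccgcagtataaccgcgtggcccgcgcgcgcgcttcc
MTHFD1L (chr6:150866347-150866376, + strand): ccgccggctcTGATGCAAtcgcgccgggcg
The 2 CCAAT of MTHFD2 begin at -184 and -74 from the start. The MTHFD1L window was given for 4 start sites, of which 3 overlap and hold this same TGATGCAA, at -129, -90 and 24 from their respective starts. TGATGNAA occurs in a window of 4.46% of the 27305 genes in the table.

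The cytosolic enzymes did not rise. MTHFD1, the trifunctional enzyme that feeds formate into cytosolic folate, read 8.88, 9.07 and 9.07 at 0 h on 202309_at, 8.61, 8.58 and 8.47 with infliximab at 6 h, 8.73, 8.79 and 8.52 at 24 h, 8.95, 8.90 and 8.88 with CDP870 at 6 h, and 9.08, 9.0 and 9.01 at 24 h. The infliximab arrays were the 6 lowest, but the gap to the next array was only 0.09. The differences of MTHFD1 were -0.45 ± 0.09 (SE) after 6 h and -0.33 ± 0.09 after 24 h. Both values lay past the threshold used for all probe sets, which is a description since the choice of genes used this contrast. The call at 6 h was lost with the spike-in level as a covariate, at the same difference of -0.45. The call at 24 h was kept in 4 of 24 alternative analyses of this probe set, in which the difference ranged from -0.46 to -0.25; without control replicate 3 or 4 it was -0.29, without infliximab replicate 7 -0.25, without infliximab replicate 5 -0.35 and without any 1 of the infliximab 6 h or CDP870 arrays -0.33, and it was called in none of these. A second probe set, 239846_at, stayed between 0.60 and 1.20 and was not tested.

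SHMT1, the cytosolic counterpart of SHMT2, was close to the detection filter. Its tested probe set (231701_s_at) exceeded the array median on 3 arrays, all of CDP870 (replicates 14 and 16 at 6 h and 13 at 24 h), and so entered the test through them alone. It read 2.68, 2.86 and 2.88 at 0 h, 2.94, 2.72 and 2.50 with infliximab at 6 h, 2.41, 2.86 and 2.71 at 24 h, 3.08, 2.97 and 3.41 with CDP870 at 6 h, and 2.86, 2.84 and 3.05 at 24 h. The infliximab arrays overlapped those of 0 h at both times, with differences of -0.09 ± 0.15 and -0.15 ± 0.15 that did not pass. With CDP870 at 6 h all 3 arrays were above 0 h, by 0.35 on average (95% interval 0.04 to 0.66), which did not pass over all probe sets (limma adjusted p = 0.997) and supports no difference, since the filter chose the probe set by these arrays. Brighter probe sets exist that are annotated to SHMT1 together with the microRNA gene MIR6778, and these were also looked at after their values were seen. With infliximab they were -0.20 and -0.21 from 0 h (224954_at) and -0.18 and -0.31 (209980_s_at) at 6 and 24 h, none of which passed. The remaining SHMT1 probe set, 217304_at, lay between 1.25 and 1.97 and was not tested.

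The MTHFD1 promoter is shown beside those of the genes that rose, as the one enzyme gene that fell. These are the first 80 bases of its window, 5′ to 3′ with CCAAT in capitals:
MTHFD1 (chr14:64388103-64388182, + strand): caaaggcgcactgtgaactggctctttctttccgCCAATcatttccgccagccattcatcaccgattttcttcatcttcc
This CCAAT begins at -216, and a second lies on the opposite strand at 35. The SHMT1 window held 2, at -76 and -25, and none of the 4 SLC19A1 windows held any. CCAAT was thus found in windows of genes that rose, that fell and that did not pass. The E-box CACGTG, in 7.26% of all windows, was found in the MTHFD1 window at -15, in the 3 overlapping MTHFD1L windows at -154, -115 and -1, and in 1 of the 4 SLC19A1 windows at 32, and in none of PHGDH, PSAT1, MTHFD2 or SHMT1.

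The contrast between the compartments was set out per array as the change of a mitochondrial gene from its 0 h mean minus that of a cytosolic one, so that no probe set's level is compared with another's. For SHMT2 minus SHMT1 it was 0.83, 1.08 and 1.11 with infliximab at 6 h and 1.25, 0.90 and 1.15 at 24 h, and -0.55 to 0.05 on the other 9 arrays. For MTHFD2 minus MTHFD1 it was 1.89, 1.91 and 2.0 at 6 h and 1.29, 1.62 and 2.02 at 24 h, and -0.50 to 0.40 elsewhere, control replicate 3 being the lowest. For ALDH1L2 minus MTHFD1 it was 3.57, 3.53 and 3.48 at 6 h and 3.23, 3.48 and 3.60 at 24 h, and -0.63 to 0.36 elsewhere. On every infliximab array each of these mitochondrial genes had risen more than its cytosolic partner. The choice of genes used the differences between infliximab and 0 h, so the direction of these contrasts is a description. The smallest of the contrasts, SHMT2 against SHMT1, averaged 1.01 ± 0.15 (SD, n = 3) at 6 h and 1.10 ± 0.18 at 24 h. It rests on the SHMT1 probe set near the array median; against MTHFD1, SHMT2 gave 1.38 ± 0.04 and 1.28 ± 0.23. Averaging the tested probe sets of each gene lowered ALDH1L2 minus MTHFD1 to 2.35 and 2.28.

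**Figure D2:**
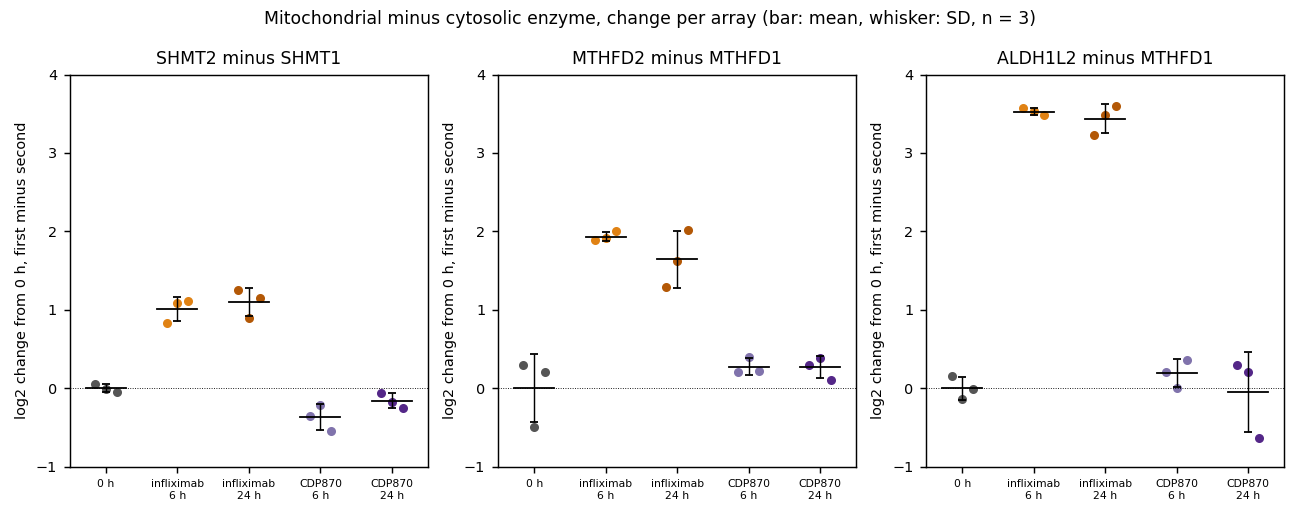
Change of a mitochondrial enzyme gene from its 0 h mean minus the change of a cytosolic one (vertical axis, log2) on every array in the 5 groups (horizontal axis), in 3 panels; points are arrays, bars means and whiskers SD (n = 3), and the dotted line marks equal change. The infliximab arrays lie at 0.83 to 1.25 for SHMT2 minus SHMT1, 1.29 to 2.02 for MTHFD2 minus MTHFD1 and 3.23 to 3.60 for ALDH1L2 minus MTHFD1, above all other arrays.

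SLC19A1, the reduced folate carrier of the plasma membrane, was lower with infliximab at 6 h on 5 of its 6 tested probe sets, of which 4 passed, and passed on none at 24 h. Of all tested probe sets 4.4% fell at 6 h and 2.79% at 24 h. The 6 probe sets measure 1 gene on the same arrays and are not independent of each other. The brightest of SLC19A1, 211576_s_at, read 7.12, 7.11 and 7.21 at 0 h, 6.76, 6.91 and 6.39 at 6 h, and 6.72, 6.95 and 6.66 at 24 h. Infliximab arrays were below those of 0 h at both times, and replicate 10 was the lowest. The difference of -0.46 ± 0.13 at 6 h passed, but in 10 of 24 alternatives only; it was -0.31 without infliximab replicate 10, -0.50 without infliximab replicate 8, and -0.47, -0.48 and -0.43 without control replicates 2, 3 and 4 in turn, each time without passing, and it was also lost, at -0.46, without CDP870 replicate 11, 14, 15 or 16. At 24 h it was -0.37 ± 0.13 and did not pass. The largest decrease was on 1555952_at, which read 4.67, 4.70 and 4.63 at 0 h, 3.92, 4.11 and 3.87 at 6 h of infliximab, and 4.79, 4.56 and 4.41 at 24 h. It fell by 0.70 ± 0.11 at 6 h and differed by -0.08 ± 0.11 at 24 h, where its arrays overlapped those of 0 h. A further pair fell at 6 h, 1555953_at by 0.60 and 209777_s_at by 0.49, and stood at -0.29 and -0.27 at 24 h without passing. Both calls at 6 h were lost without control replicate 3; that of 1555953_at also without infliximab replicate 9 or 10, and that of 209777_s_at without infliximab replicate 8. On 209776_s_at the difference at 6 h was -0.46 and did not pass, and on 209775_x_at it was -0.02. The probe sets of this gene thus disagree in size. A seventh, 229639_s_at, lay between 2.33 and 2.76 and was not tested.

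**Figure D3:**
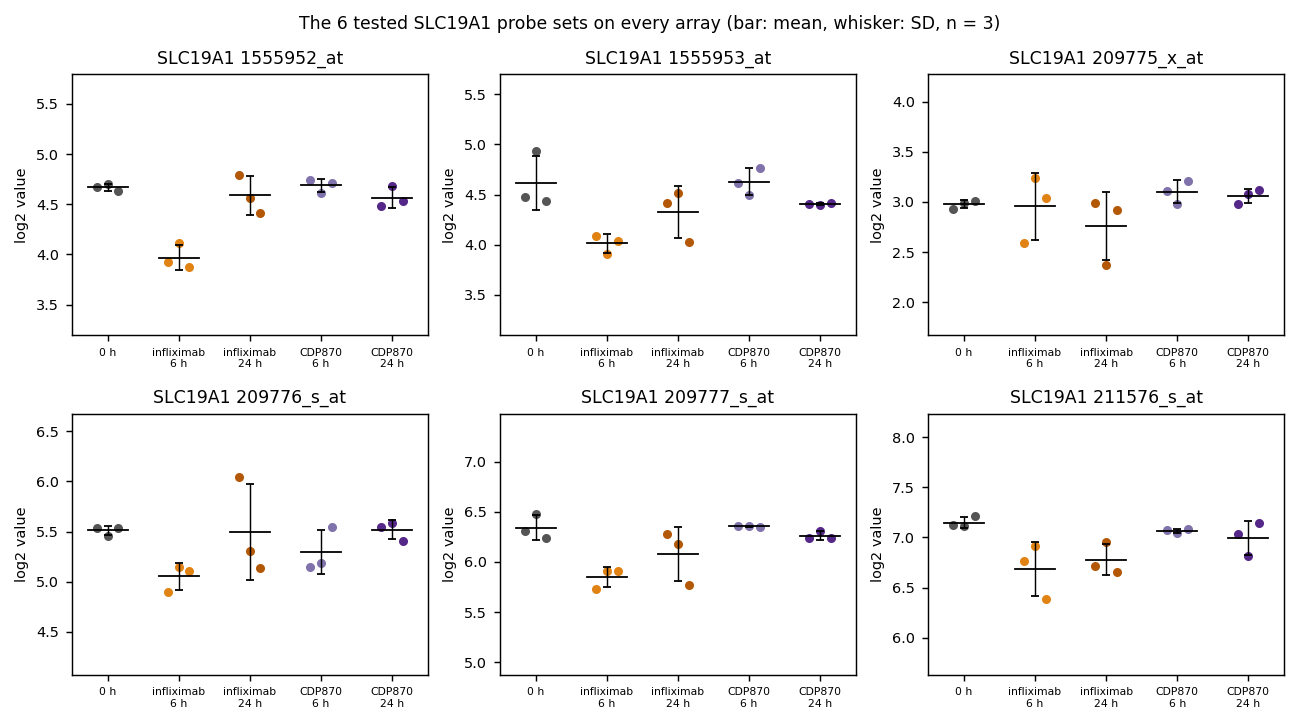
Log2 value (vertical axis) of the 6 tested SLC19A1 probe sets, 1 panel each, on every array in the 5 groups (horizontal axis); points are arrays, bars means and whiskers SD (n = 3). The infliximab 6 h arrays lie lowest on 1555952_at, at 3.87 to 4.11 against 4.63 to 4.70 at 0 h, and overlap the 0 h arrays on 209775_x_at.

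CDP870 was accompanied by no detectable change in any of these genes. No tested probe set passed at 6 or 24 h against 0 h (limma, n = 3 and 3, smallest adjusted p = 0.997 and 0.974), nor did any other on the array (0% called in both comparisons). At an unadjusted p under 0.05 there was 1 of 20 at 6 h, the SHMT1 probe set that entered the test through CDP870 arrays, and 0 at 24 h, where 4.68% and 4.70% of all tested probe sets reached it. The 20 differences lay between -0.22 and 0.35 at 6 h and between -0.21 and 0.29 at 24 h, and their 95% intervals reached from -0.60 to 0.66 and from -0.56 to 0.65. Failing the threshold does not show that the levels were equal. For ALDH1L2 the intervals were -0.32 to 0.51 and -0.43 to 0.39, for PSAT1 -0.18 to 0.22 and -0.12 to 0.28, and for SHMT2 -0.21 to 0.17 and -0.24 to 0.14, on the brightest probe set of each. These comparisons share the 0 h arrays with those of infliximab.

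**Figure D4:**
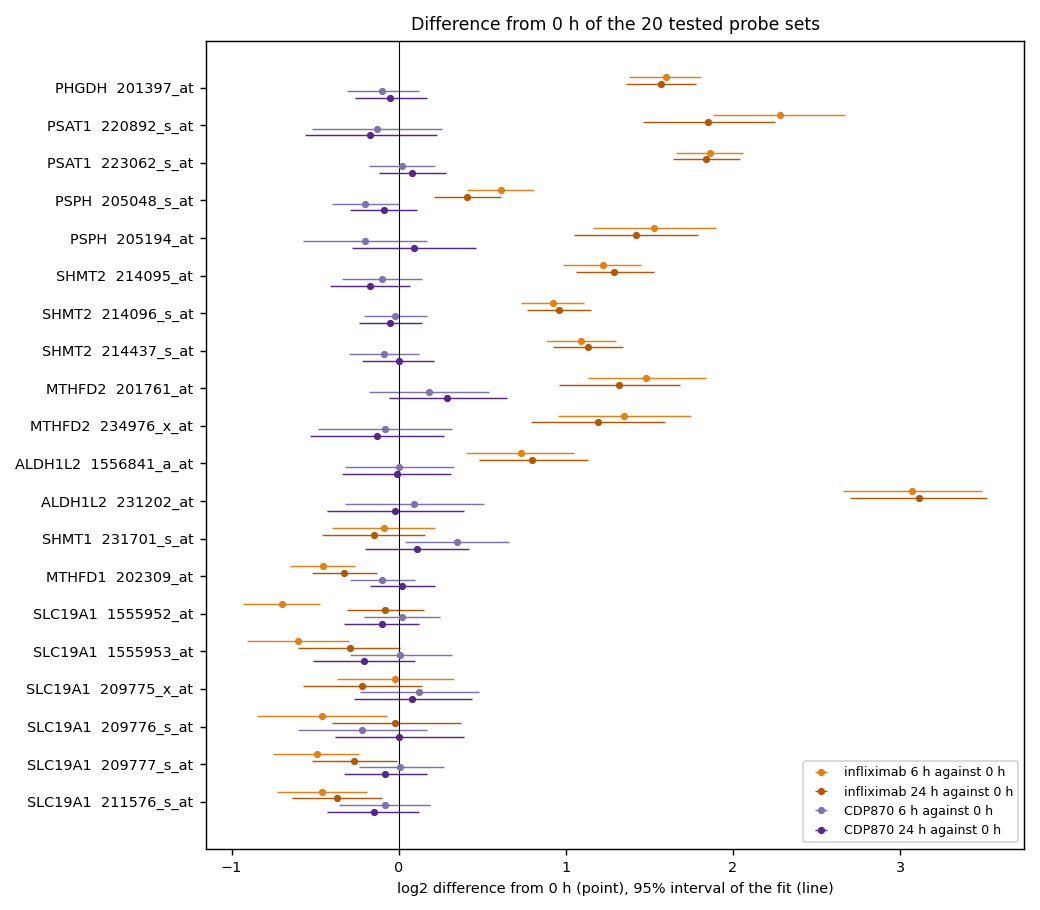
Difference from 0 h (horizontal axis, log2) of the 20 tested probe sets (vertical axis) with infliximab or CDP870 at 6 and 24 h; points are the fitted differences between 3 and 3 arrays and lines their 95% intervals. The infliximab points lie between -0.70 and 3.11, and the CDP870 points between -0.22 and 0.35.

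Set directly against CDP870 at the same time, infliximab gave nearly the same picture. The 0 h arrays do not enter these differences, but they do enter the spread behind the calls. At 6 h 12 of the 20 probe sets were higher and 4 lower, where 9.07% of all tested probe sets were called, 5.1% higher and 3.98% lower. At 24 h 12 were higher and 1 lower, where 6.51% were called, 4.73% higher and 1.79% lower. The choice of genes drew on the infliximab arrays, so this too is a description. The differences at 6 and 24 h were 1.69 and 1.62 for PHGDH, 1.84 and 1.75 for PSAT1, 0.81 and 0.50 for PSPH, 0.95 and 1.01 for SHMT2, 1.3 and 1.03 for MTHFD2, and 2.98 and 3.13 for ALDH1L2, on the brightest probe sets. MTHFD1 was lower by the fit at both times, with differences of -0.36 and -0.35. At 6 h this call was lost when any 1 of the 6 arrays compared was left out (-0.39 to -0.32). At 24 h it was lost without infliximab replicate 5 (-0.38) or 7 (-0.27), without any of the 3 CDP870 24 h arrays (-0.36 to -0.32), and without CDP870 6 h replicate 14 or 15 (-0.35). SHMT1 differed by -0.43 ± 0.15 and -0.26 ± 0.15 and passed at neither time. Its probe set entered the test through CDP870 arrays alone, so these differences support nothing. Taking all 15 arrays, 12 of the 20 probe sets (60%) were higher on the 6 infliximab arrays than on any of the other 9, where 3.99% of all tested probe sets were, and 1, MTHFD1, was lower on all 6, where 2.78% were. Among the 12 is ALDH1L2 1556841_a_at, which entered the test through the infliximab arrays alone. The choice of genes used these arrays, so the shares are a description and nothing is read from them.

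The choice of genes did not use the comparison between 6 and 24 h of infliximab, but it did use the infliximab arrays. The p-values of this comparison, and of that between the agents below, are therefore not independent of the choice. Between 6 and 24 h of infliximab no tested probe set passed (0 of 20, and 0% of all tested probe sets). The smallest limma adjusted p among the 20 was 0.3. At an unadjusted p under 0.05 there were 4 of 20, where 11.9% of all tested probe sets reached it. The differences were -0.03 for PHGDH (95% interval -0.24 to 0.19), -0.02 for the brightest PSAT1 probe set (-0.22 to 0.18), 0.03 for SHMT2 (-0.16 to 0.22), -0.16 for MTHFD2 (-0.52 to 0.19) and 0.04 for ALDH1L2 (-0.38 to 0.45). PSPH stood 0.20 lower at 24 h (difference -0.20, -0.40 to 0.00). The widest difference was on SLC19A1 1555952_at, 0.62 higher at 24 h than at 6 h (95% interval 0.39 to 0.85), with no overlap between the groups, as on 10.6% of all tested probe sets. It passed only without infliximab 24 h replicate 7, where the difference was 0.71. In that fit 2462 of all 28897 tested probe sets passed. Among them were 3 other member probe sets: SLC19A1 209776_s_at (0.62) and 209777_s_at (0.38), and PSAT1 220892_s_at (-0.65). With CDP870 none of the 20 passed between 6 and 24 h (0% of all tested probe sets; smallest adjusted p = 0.998), 0 of 20 at an unadjusted p under 0.05, and the differences lay between -0.24 and 0.29. The test of whether the change between the times differed between the agents passed on none of the 20 (0% of all; smallest adjusted p = 0.365, 3 of 20 at an unadjusted p under 0.05, where 9.14% of all reached it). SLC19A1 1555952_at had the smallest of these p-values, with a difference of 0.74 (95% interval 0.42 to 1.06).

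Beyond the members, 35 genes of serine, glycine and folate metabolism were looked at, of which 30 had a tested probe set. They were listed with earlier results of these data known. Their p-values with infliximab, here and in the next paragraph, are therefore a description and no independent test. With infliximab 6 of the 30 rose and none fell at 6 h, and 5 rose and 1 fell at 24 h, with a median difference of -0.06 and -0.07. Of all tested probe sets 4.02% rose and 4.4% fell at 6 h, and 3.78% rose and 2.79% fell at 24 h. With CDP870 none of the 30 passed. Among the transporters of serine and glycine 4 of 7 rose at both times. The neutral amino acid exchangers SLC1A4 and SLC1A5 rose by 1.03 ± 0.11 and 0.67 ± 0.13 at 6 h, and at 24 h by 1.39 ± 0.11 and 0.94 ± 0.13 (SE, limma adjusted p = 7.85e-05, 0.00602, 3.56e-06 and 0.000551). The sodium-coupled carriers SLC38A1 and SLC38A2 rose by 1.20 ± 0.12 and 0.69 ± 0.11 at 6 h (adjusted p = 4.9e-05 and 0.00195). SFXN1, which carries serine into mitochondria, fell by 0.34 ± 0.08 at 24 h (adjusted p = 0.0254) and was -0.20 ± 0.08 from 0 h at 6 h, which did not pass (adjusted p = 0.162). With CDP870 SFXN1 was also below 0 h without overlap, with differences of -0.23 at 6 h and -0.13 at 24 h, neither of which passed (limma adjusted p = 0.988 and 0.974). Between infliximab and CDP870 it differed by 0.03 at 6 h and -0.21 at 24 h, which did not pass (adjusted p = 0.861 and 0.175).

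The counts that follow stand beside 4.02% of all tested probe sets higher at 6 h and 3.78% at 24 h. Among the enzymes that use serine or glycine 1 of 8 rose. This was CBS, cystathionine beta-synthase, which joins serine to homocysteine, by 1.44 ± 0.14 at 6 h and 1.77 ± 0.14 at 24 h (limma adjusted p = 1.83e-05 and 1.98e-06). In folate uptake and storage 1 of 6 passed, GGH, the lysosomal folate hydrolase, with 0.31 ± 0.09 at 6 h (adjusted p = 0.0391) and 0.15 ± 0.09 at 24 h (adjusted p = 0.347). The mitochondrial folate carrier SLC25A32 was -0.33 ± 0.11 and -0.39 ± 0.11 from 0 h and did not pass (adjusted p = 0.0849 and 0.054). None of the 9 tested genes of folate interconversion and use passed at either time. These include MTHFD2L, the paralogue of MTHFD2 in mitochondria (0.01 ± 0.14 at 6 h), ALDH1L1, the cytosolic paralogue of ALDH1L2 (0.00 ± 0.17), and the thymidylate synthase gene TYMS (-0.07 ± 0.08).

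**Figure D5:**
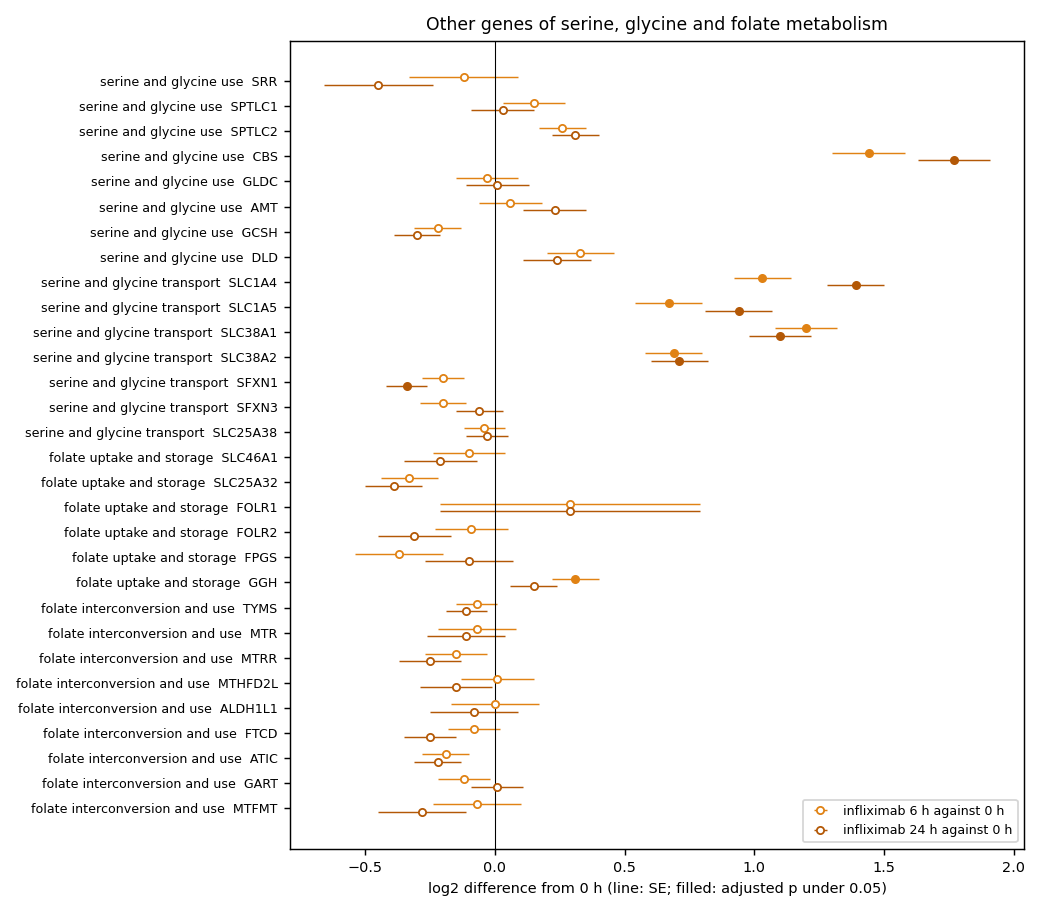
Difference from 0 h (horizontal axis, log2, lines are SE) of 30 further genes of serine, glycine and folate metabolism (vertical axis) with infliximab at 6 and 24 h; filled points have a limma adjusted p under 0.05. CBS, SLC1A4, SLC1A5, SLC38A1 and SLC38A2 rose at both times, GGH at 6 h, and SFXN1 fell at 24 h.

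Genes whose pattern over the 15 arrays was most like that of a member were ranked by the root mean square difference of their changes from the 0 h mean. For PSAT1 the nearest were PAG1 (0.15), WARS1 (0.19) and TUBE1 (0.20). For MTHFD2 they were DKK2 (0.14), CLIC4 (0.15) and ZNF277 (0.15). For ALDH1L2 they were ASNS, the asparagine synthetase gene (0.22), DDIT4 (0.37) and VEGFA (0.41). The likeness rests largely on the difference between the 6 infliximab arrays and the rest.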

How the data were processed

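Affymetrix arrays of 54675 probe sets measured RNA of THP-1 cells, 15 arrays in 5 groups of 3, and groups were taken from the labels. The values are log2 summaries deposited by the authors. GCRMA and GCOS 1.3.0 appear in the submitters' processing notes without a role. For the normalization and the background settings, the sources used here give nothing. The zero of the scale is unknown, and the number of arrays limits the precision.

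A gene's probe sets are those annotated to it alone. Tested probe sets lay above the array median (50th percentile) of non-control probe sets on at least 3 arrays. limma 3.58.1 (R 4.3.3, Python 3.11.15, matplotlib 3.10.9) fitted 1 mean per group to all 15 arrays, and two-sided p-values were adjusted by Benjamini-Hochberg over 28897 probe sets (threshold 0.05). The fit was tested on simulated data. All members are named whatever their values, and the brightest tested probe set (highest mean) stands for a gene. Members, lists and alternatives were chosen with earlier results of these data known.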

Additional observations from a re-analysis of the deposited data

Results flagged for a closer look

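The probe set 225520_at, annotated to MTHFD1L together with LOC101928195 and LOC100996643, is outside the gene-level comparisons because it names no single gene. It was 0.64 ± 0.11 (SE) above 0 h with infliximab at 6 h and 0.71 ± 0.11 at 24 h on the log2 scale, higher on 6 of 6 infliximab arrays than on any other array. With CDP870 it differed from 0 h by 0.03 at 6 h and 0.16 at 24 h. Which of the 3 annotated genes it measures was not tested.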

How the results depend on the processing

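No paired analysis was possible because no replicate number is shared between groups. The mean spike-in level was 7.71 to 7.78 with infliximab at 6 h and 7.23 to 7.46 at 0 h, without overlap. The agent and this level can therefore not be fully told apart in that comparison. With the level as a covariate the SE of PHGDH at 6 h went from 0.10 to 0.14. With the mean spike-in level as a covariate all calls with infliximab at 6 h went from 2432 to 181 of 28897. Those of the members went from 17 to 9 of 20: PHGDH, both of PSAT1, the 3 of SHMT2 and 1 each of PSPH, MTHFD2 and ALDH1L2. These 9 were called at 6 h in every alternative run on probe sets, and 9 were at 24 h. Without infliximab 24 h replicate 7, 4 of the 20 passed between 24 and 6 h, where 2462 of all 28897 tested probe sets did. For the difference of that change between the agents 1 of the 20 passed (SLC19A1 1555952_at), where 920 of all did. With every array kept, 0 passed in either comparison. The cause was not tested. Leaving out each array in turn gave 14 to 18 calls for infliximab at 6 h, 11 to 13 at 24 h, 13 to 16 and 12 to 13 against CDP870 at 6 and 24 h, 0 to 4 between the times, 0 to 1 for the agent by time term and 0 to 0 for CDP870 in its 3 comparisons. Over all 28897 tested probe sets the same fits called 1156 to 3187 with infliximab at 6 h and 1120 to 2620 at 24 h. Against CDP870 they called 1181 to 3326 at 6 h and 1074 to 2891 at 24 h. No alternative reversed a direction that had been called. Gene means give no probe set counts, and SHMT1 is untested with the filter at the 75th percentile.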
